A study of Homo sapiens with 15 samples.

Results

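Gene expression was compared between 2 base-edited lines of TF-1, IDH1R132H and IDH2R172K, which carry a substitution at the matching arginine of the cytosolic and of the mitochondrial isocitrate dehydrogenase. TF-1 is a human erythroleukaemia cell line that needs a cytokine such as GM-CSF for growth. Both lines grew in RPMI-1640 with 10% FBS and without GM-CSF, so the medium was shared and the edited gene differed. Of the 15 libraries of the series, 6 entered the comparison, 3 of each line, and the fit also used 3 each of IDH2R140Q and IDH2R140W, grown without GM-CSF, and of Parental, grown with 2 ng/ml GM-CSF. The genes were all 14881 symbols, of 56624 in the table, that reached 1 TPM in at least 3 of the 15 libraries. TPM is an abundance of transcripts relative to the whole library, corrected for transcript length. The labels do not say whether a line is 1 clone or a pool, nor that its 3 libraries are separate cultures, and all p-values therefore reflect library-to-library spread that may be technical. With 1 line per mutation, the edit and any other difference between the lines cannot be told apart.

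Isocitrate dehydrogenases turn isocitrate into 2-oxoglutarate and make NADPH, IDH1 in the cytosol and IDH2 in mitochondria. Substitutions at their active-site arginines, found in leukaemias and gliomas, give enzymes that reduce 2-oxoglutarate to 2-hydroxyglutarate. That metabolite competes with 2-oxoglutarate in dioxygenases such as the TET enzymes and histone demethylases, and in blood cells it is known for holding back differentiation.

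The reference sequence around the edited codon of IDH1 shows the site of the substitution. The codon for arginine is in capitals, within 27 bases of coding sequence read 5′ to 3′ on the minus strand, from the hg38 genome with GENCODE release 29, and these are reference bases, not bases read from the libraries. The codon lies in coding sequence of exon 4 at chr2:208248387-208248389.
IDH1 edited codon: atcatcataggtCGTcatgcttatggg
R132H replaces the arginine of IDH1 with histidine, and R172K replaces that of IDH2 with lysine.

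The libraries of the lines were of similar complexity. Between 13378 and 13534 symbols reached 1 TPM in the IDH1R132H libraries, and between 13399 and 13490 in the IDH2R172K libraries. Over the genes tested, which are not independent of each other, Pearson's r was 0.985 to 0.990 among the IDH1R132H libraries, 0.977 to 0.985 among the IDH2R172K libraries and 0.947 to 0.959 between the lines. Ribosomal protein genes held 15.2% to 15.5% of TPM in IDH1R132H and 15% to 15.3% in IDH2R172K, and mitochondrially encoded genes held 2.41% to 2.73% in IDH1R132H and 3.49% to 3.63% in IDH2R172K. Of the 7 TF-1 markers tested, 3 were lower in IDH1R132H by the rule given further on, none was higher and 4 did not change (median log2 difference −0.47), and the summed level of the list was 1130 to 1170 TPM in IDH1R132H and 1380 to 1400 TPM in IDH2R172K. The 3 that were lower were the receptor chain CSF2RB and the scavenger receptor CD36, both described further on, and CD38, a surface NAD-consuming enzyme, at 0.77, 0.60 and 0.45 TPM in IDH1R132H and 4.82, 8.08 and 3.6 TPM in IDH2R172K (log2 difference −1.96, adjusted p = 9.4e-05). The progenitor antigens CD34 and CD33 were present in both lines. CD34 averaged 512 ± 5.36 TPM in IDH1R132H and 533 ± 17.9 TPM in IDH2R172K (mean ± SD, n = 3 each, as in all such values), and CD33 averaged 248 ± 6.3 TPM in IDH1R132H and 262 ± 8.48 TPM in IDH2R172K. GATA1, CSF2RA and IL3RA, which TF-1 is known to express, are listed at 0 in all 6 libraries, as are PGK1 and TPI1, glycolytic genes that every cell uses, so a 0 in this table can be a failed estimate and is reported only as a listing. Of the other marker lists, the summed fibroblast markers stood at 0.95 to 1.15 TPM in IDH1R132H and 0.20 to 0.90 TPM in IDH2R172K. Summed T cell markers were 28.2 to 36.1 TPM in IDH1R132H and 50 to 57.3 TPM in IDH2R172K, and summed B cell markers 6.28 to 8.61 TPM in IDH1R132H and 4.16 to 5.44 TPM in IDH2R172K. Endothelial markers summed to 719 to 737 TPM in IDH1R132H and 601 to 635 TPM in IDH2R172K, and epithelial markers to 784 to 792 TPM in IDH1R132H and 571 to 590.0 TPM in IDH2R172K. The part of these markers in the results was not tested. Listed at 0 in all 6 libraries are 5 of 10 T cell markers and 5 of 9 B cell markers. The same holds for 3 of 7 fibroblast, 1 of 7 endothelial and 3 of 7 epithelial markers. These are listings only, and other members of the lists carry the sums above.

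IDH1 did not differ between the lines beyond the spread of the libraries, and IDH2 was higher in IDH1R132H. IDH1 (ENSG00000138413, hg38 chromosome 2, 208236227 to 208266074, minus strand) had 38.3, 37.9 and 34.3 TPM in the IDH1R132H libraries, against 36.6, 35.5 and 40.8 TPM in the IDH2R172K libraries. The groups overlapped, and the means were 36.8 ± 2.23 TPM in IDH1R132H and 37.7 ± 2.79 TPM in IDH2R172K (log2 difference −0.03, SE 0.09, adjusted p = 0.844). IDH2 (ENSG00000182054, chromosome 15, 90083045 to 90102504, minus strand) had 51.8, 56.7 and 48.3 TPM in the IDH1R132H libraries, against 33.4, 32 and 30 TPM in the IDH2R172K libraries. Every IDH1R132H library lay above every IDH2R172K library (log2 difference 0.70, SE 0.08, adjusted p = 1.53e-05), by less than 2-fold. IDH2 averaged 74.7 TPM in IDH2R140Q, 45.4 TPM in IDH2R140W and 52.8 TPM in Parental. TPM is not split by allele, so the share of mutant transcript was not measured.

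Expression differed widely between the lines. A gene was called changed when limma gave an adjusted p under 0.05 together with a difference of 2-fold or more, that is 1 or more on the log2(TPM + 1) scale, a scale that understates differences of genes at low level. By that rule 1115 of 14881 genes (7.49%) changed, 621 of them higher in IDH1R132H (4.17%) and 494 lower (3.32%). The difference reached 4-fold in 84 genes that were higher and 100 that were lower. The median gene differed by 0.03, and the median standard error was 0.17. After median-ratio scaling the changed genes split into 563 higher and 518 lower, and after quantile normalisation into 577 and 530. The 3 libraries of a line lay wholly outside the range of the other line in 7721 genes (51.9%), 4277 higher in IDH1R132H (28.7%) and 3444 lower (23.1%), among them 1105 of the 1115 changed genes. With 3 libraries a line, the smallest p an exact test could give is 0.10, and the adjusted p-values draw on a spread that limma pools over genes and groups.

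Either line could stand apart from the rest of the series. Among the 621 genes higher in IDH1R132H, that line had the highest mean of the 5 groups in 448 (72.1%) and IDH2R172K the lowest in 370 (59.6%), with both true of 231. Of the 494 lower genes, IDH1R132H was the lowest of 5 in 291 (58.9%) and IDH2R172K the highest in 340 (68.8%), with both true of 161. Over all 14881 genes these shares were 25%, 17.8%, 17.2% and 19.7%. A call in this contrast favours an end place, so the shares describe the called genes and were not tested.

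**Figure D1:**
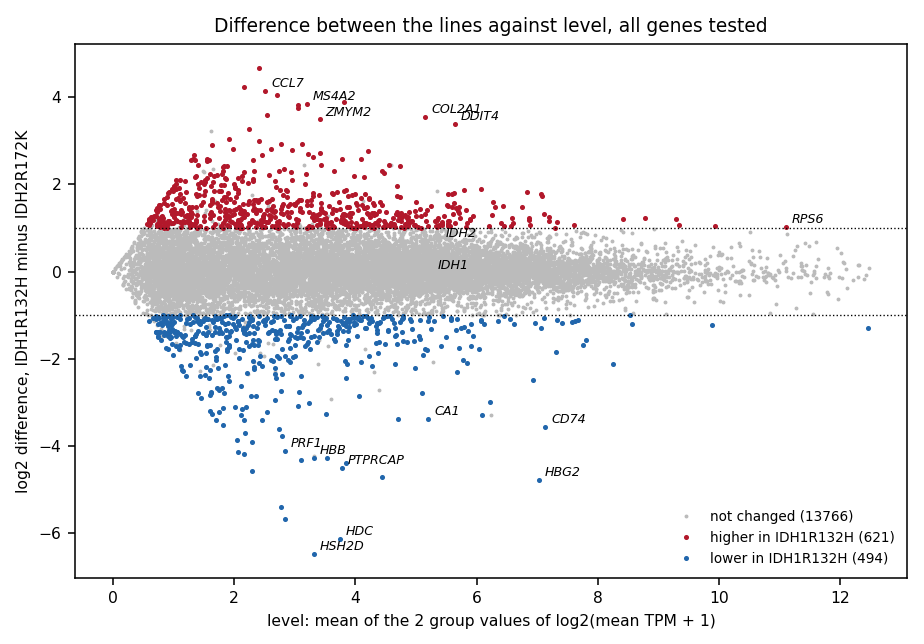
Difference between the lines on the log2(TPM + 1) scale (vertical) against level (horizontal) for each of the 14881 genes tested; red genes were higher and blue genes lower in IDH1R132H at adjusted p under 0.05 and 2-fold (dotted lines). The largest falls, HSH2D and HDC, lie beyond those of any rise, and IDH1 lies near 0.

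Haemoglobin transcripts were lower in IDH1R132H, in every globin gene that changed. Red cells build haemoglobin from an alpha-like and a beta-like chain, with embryonic, fetal and adult forms. Of 9 globins tested, 7 were lower, none was higher and 2 did not change, with a median log2 difference of −2.48 beside 0.03 for all genes. Globins together held 0.028% to 0.0316% of TPM in IDH1R132H libraries and 0.16% to 0.172% in IDH2R172K libraries.

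HBG2, a fetal gamma chain, had 18.4, 29.9 and 23.7 TPM in the IDH1R132H libraries, against 607, 692 and 728 TPM in the IDH2R172K libraries. No library of one line came near the other (log2 difference −4.78, SE 0.20, adjusted p = 6.12e-10). HBG1, the near-identical second gamma gene, whose reads may be split with HBG2 in either direction, averaged 3.24 ± 0.565 TPM in IDH1R132H and 109.9 ± 8.12 TPM in IDH2R172K (log2 difference −4.72, SE 0.23, adjusted p = 3.33e-09). HBB, the adult beta chain, had 1.3, 2.19 and 0.44 TPM in IDH1R132H and 39.5, 39.5 and 45.6 TPM in IDH2R172K (log2 difference −4.27, SE 0.22, adjusted p = 4.6e-09). HBE1, the embryonic beta-like chain, had 0.29, 0.24 and 0 TPM in IDH1R132H and 12, 7.29 and 9.12 TPM in IDH2R172K, with 1 library listed at 0 (log2 difference −3.14, adjusted p = 2.4e-08). The alpha-like chains differed less. HBA2 averaged 50.9 ± 8.4 TPM in IDH1R132H and 286 ± 13.8 TPM in IDH2R172K (log2 difference −2.48, adjusted p = 5.67e-09), its near-identical copy HBA1 119 ± 3.98 TPM in IDH1R132H and 387 ± 17.1 TPM in IDH2R172K (log2 difference −1.69, adjusted p = 1.35e-08) and the embryonic zeta chain HBZ 13.6 ± 0.648 TPM in IDH1R132H and 67.2 ± 3.48 TPM in IDH2R172K (log2 difference −2.22, adjusted p = 1.71e-06). HBD, the adult delta chain, did not differ beyond the spread, at 61.1, 73.6 and 62.8 TPM in IDH1R132H and 66.2, 71 and 63.4 TPM in IDH2R172K (log2 difference −0.03, adjusted p = 0.879). HBQ1, theta globin, averaged 15.4 ± 2.53 TPM in IDH1R132H and 24.3 ± 0.628 TPM in IDH2R172K, with groups that did not overlap and a difference under 2-fold (log2 difference −0.63, adjusted p = 0.00225). In the other groups HBG2 averaged 6.07 TPM in IDH2R140Q, 133 TPM in IDH2R140W and 880.4 TPM in Parental, so IDH2R172K stood nearer Parental, and IDH1R132H nearer IDH2R140Q. HBB averaged 4.76 TPM in IDH2R140Q, 113 TPM in IDH2R140W and 69 TPM in Parental.

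Red cell genes beyond the globins leaned the same way. Of 24 membrane, iron and carbonic anhydrase genes, 10 were lower in IDH1R132H, 1 was higher and 13 did not change (median −0.63). Over all genes 3.32% were lower and 4.17% higher. CA1, carbonic anhydrase 1, had 9.86, 11.1 and 10.3 TPM in the IDH1R132H libraries, against 121, 105 and 128 TPM in the IDH2R172K libraries, a wide gap in all libraries (log2 difference −3.38, SE 0.10, adjusted p = 3.29e-11). AHSP, the chaperone of free alpha chains, averaged 5.2 ± 1.18 TPM in IDH1R132H and 32.4 ± 2.66 TPM in IDH2R172K (log2 difference −2.44, adjusted p = 8.67e-07). EPB42, protein 4.2 of the red cell skeleton, averaged 1.85 ± 0.493 TPM in IDH1R132H and 13.4 ± 1.98 TPM in IDH2R172K (log2 difference −2.34, adjusted p = 2.77e-07), and ANK1, ankyrin, 14.3 ± 0.852 TPM in IDH1R132H and 41.2 ± 3.97 TPM in IDH2R172K (log2 difference −1.46, adjusted p = 0.00013). The Rh genes RHD and RHCE, close copies whose reads may be shared, averaged 8.11 ± 0.37 TPM in IDH1R132H and 40.3 ± 3.98 TPM in IDH2R172K and 8.59 ± 1.69 TPM in IDH1R132H and 35.4 ± 2.91 TPM in IDH2R172K, and the adjusted p-values were 1.64e-07 and 4.07e-08. BLVRB, a biliverdin reductase abundant in red cells, averaged 108 ± 3.86 TPM in IDH1R132H and 235 ± 3.56 TPM in IDH2R172K (log2 difference −1.11, adjusted p = 9.32e-09). SLC4A1, the band 3 anion exchanger, the transferrin receptor TFR2 and the scavenger receptor CD36 were also lower, with log2 differences of −1.4, −1.49 and −1.49. CA2, a second carbonic anhydrase, was the member that was higher, at 7.35, 9.3 and 6.54 TPM in IDH1R132H and 1.44, 0.47 and 1.11 TPM in IDH2R172K (log2 difference 2.14, adjusted p = 2.49e-06). In Parental CA2 averaged 59.2 TPM, above both edited lines. TFRC, the main transferrin receptor, averaged 888 ± 15.7 TPM in IDH1R132H and 930.4 ± 15.2 TPM in IDH2R172K with an adjusted p of 0.808.

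In haem synthesis 2 of 14 genes were lower, beside 3.32% of all genes, and none was higher. ALAS2, the erythroid enzyme that starts the pathway, had 1.27, 2.79 and 3.06 TPM in IDH1R132H and 23.4, 27.1 and 26.1 TPM in IDH2R172K (log2 difference −3.02, SE 0.22, adjusted p = 1.67e-07). The other 12 genes of the list did not change by the rule, and the list's median was −0.15. By limma 5 of the 14 were higher and 6 lower at an unadjusted p under 0.05. The IDH1R132H libraries lay wholly above those of IDH2R172K in 5 genes and wholly below in 8, beside 28.7% and 23.1% of all genes. Of 11 erythroid transcription factors none was lower by the rule and BCL11A, a repressor of fetal globin genes, was higher, at 9.49, 8.03 and 6.72 TPM in IDH1R132H and 1.99, 2.45 and 1.59 TPM in IDH2R172K (log2 difference 1.59, SE 0.20, adjusted p = 3.48e-05). BCL11A lies within a stretch of chromosome 2 whose genes differed together, described further on. KLF1, an activator of globin and red cell genes, had 72.6, 67.1 and 70.3 TPM in IDH1R132H and 142, 133 and 144 TPM in IDH2R172K, just under 2-fold (log2 difference −0.99, SE 0.06, adjusted p = 1.97e-08), and passed 2-fold after median-ratio scaling, after quantile normalisation and in 3 of the 6 fits that left out a library. TAL1 and GATA2 averaged 104 ± 2.44 TPM in IDH1R132H and 106 ± 8.34 TPM in IDH2R172K and 378 ± 5.17 TPM in IDH1R132H and 365 ± 1.04 TPM in IDH2R172K, and neither passed the adjusted p. In these bulk samples, fewer cells with red cell transcripts and less RNA per cell cannot be told apart.

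Transcripts of HLA class II presentation were lower in IDH1R132H. Class II molecules show peptides from outside the cell to helper T cells, with CD74, the invariant chain, guiding their loading and CIITA switching on their genes. Of 9 genes tested, 8 were lower in IDH1R132H, and the median was −3.08. CD74 had 39.2, 38.9 and 41.7 TPM in the IDH1R132H libraries, against 484, 489 and 471 TPM in the IDH2R172K libraries. The libraries of each line lay within a narrow range far from the other (log2 difference −3.56, SE 0.08, adjusted p = 4.95e-12). HLA-DRA, the shared DR alpha chain, had 2.28, 3.08 and 2.64 TPM in IDH1R132H and 33.6, 33.1 and 36.2 TPM in IDH2R172K (log2 difference −3.27, SE 0.16, adjusted p = 2.59e-09). HLA-DQB1 averaged 1.84 ± 0.313 TPM in IDH1R132H and 23 ± 1.09 TPM in IDH2R172K (log2 difference −3.08, adjusted p = 8.28e-10), and HLA-DQA1 had 0.13, 0 and 0.18 TPM in IDH1R132H and 8.96, 9.6 and 9.13 TPM in IDH2R172K (log2 difference −3.22, adjusted p = 6.59e-10). For the beta chains, HLA-DRB1 averaged 0.377 ± 0.0907 TPM in IDH1R132H and 5.63 ± 1.04 TPM in IDH2R172K and HLA-DPB1 had 0.46, 0 and 0.32 TPM in IDH1R132H and 5.51, 1.25 and 2.96 TPM in IDH2R172K, and both were lower (adjusted p = 4.03e-08 and 0.00154). HLA-DRB5, a near copy of HLA-DRB1, had 0.54, 0 and 0.65 TPM in IDH1R132H and 11.8, 13.2 and 12.3 TPM in IDH2R172K (log2 difference −3.3, adjusted p = 1.86e-08). CIITA itself had 1.42, 2.45 and 2.3 TPM in IDH1R132H and 8.47, 8.52 and 7.44 TPM in IDH2R172K (log2 difference −1.6, SE 0.19, adjusted p = 1.59e-05). IFI30, a lysosomal thiol reductase, was the member that did not reach 2-fold, at 19.6 ± 0.891 TPM in IDH1R132H and 38 ± 1.96 TPM in IDH2R172K (log2 difference −0.92, adjusted p = 2.78e-07). CD74 averaged 727 TPM in IDH2R140Q, 131.5 TPM in IDH2R140W and 74.9 TPM in Parental, so IDH1R132H lay below all other groups and IDH2R172K second to IDH2R140Q.

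Class I genes, which show peptides from inside the cell, differed in the same direction by less. Of 8 tested, 4 were lower, none was higher and 4 did not change (median −0.80). HLA-C had 16.8, 18.8 and 19.5 TPM in IDH1R132H and 59.1, 68.1 and 71.5 TPM in IDH2R172K (log2 difference −1.79, SE 0.09, adjusted p = 3.29e-09). HLA-B averaged 6.24 ± 1.1 TPM in IDH1R132H and 21 ± 3.86 TPM in IDH2R172K (log2 difference −1.6, adjusted p = 2.09e-06) and NLRC5, the class I counterpart of CIITA, 8.55 ± 1.52 TPM in IDH1R132H and 22.1 ± 2.35 TPM in IDH2R172K (log2 difference −1.28, adjusted p = 0.000165). B2M, the light chain common to all class I molecules, had 1027, 1111 and 1091 TPM in IDH1R132H and 1533, 1540.0 and 1631 TPM in IDH2R172K, lower in every library but under 2-fold (log2 difference −0.54, adjusted p = 0.000337). All HLA genes named here except HLA-DRB5 have between 6 and 8 rows in the table, which were summed. Without symbols on more than 1 row, 3 class II genes and 1 class I gene were left as lower.

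**Figure D2:**
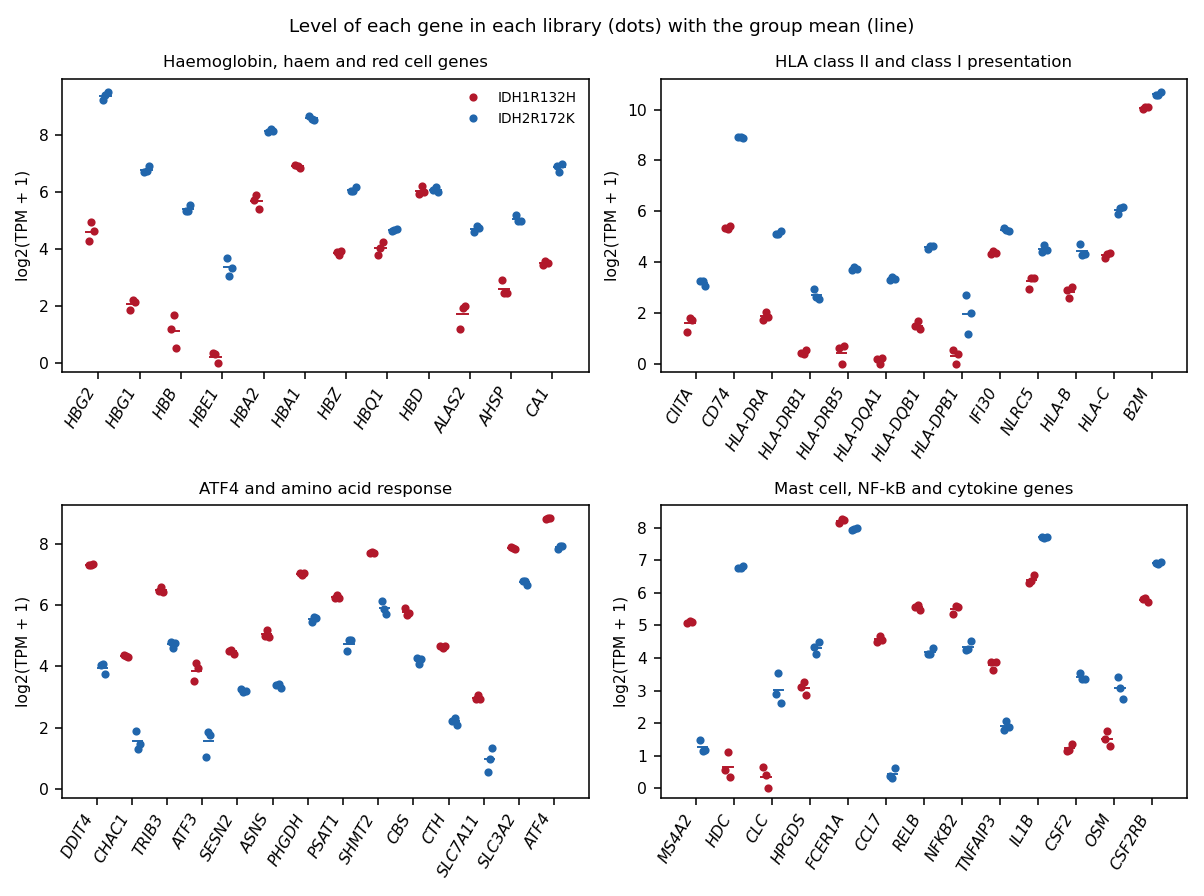
Level of selected genes, on the log2(TPM + 1) scale, in the 3 IDH1R132H libraries (red) and the 3 IDH2R172K libraries (blue), with a line at each mean. Globin and HLA class II genes lay lower in IDH1R132H with HBD as an exception, and the selected genes of the ATF4 and amino acid group lay higher.

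Genes of the amino acid response were higher in IDH1R132H. ATF4 is a transcription factor whose translation rises when cells lack amino acids or meet stress in mitochondria or the endoplasmic reticulum, and its targets supply and import amino acids. Of 30 genes of this group, 13 were higher by the rule, 1 was lower and 16 did not change, with a median of 0.89. In 25 of the 30 every IDH1R132H library lay above every IDH2R172K library, beside 28.7% of all genes. IDH2R172K had the lowest mean of the 5 groups in 20 of the 30, and IDH1R132H the highest in 20.

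Stress-response genes of the group are given before enzymes and transporters. DDIT4, an inhibitor of mTORC1 signalling, had 158, 159 and 163 TPM in the IDH1R132H libraries, against 15.5, 15.8 and 12.4 TPM in the IDH2R172K libraries (log2 difference 3.38, SE 0.08, adjusted p = 4.95e-12). CHAC1, which breaks down glutathione, had 19.7, 19.1 and 18.8 TPM in IDH1R132H and 2.71, 1.48 and 1.78 TPM in IDH2R172K (log2 difference 2.78, SE 0.14, adjusted p = 3.57e-09). TRIB3, a pseudokinase that restrains ATF4, had 88.3, 96.9 and 86.6 TPM in IDH1R132H and 26.8, 23.2 and 26.2 TPM in IDH2R172K (log2 difference 1.8, SE 0.08, adjusted p = 1.23e-09). In these 3 genes each line's libraries stayed close together and far from those of the other. ATF3, a stress-induced transcription factor, averaged 13.8 ± 2.96 TPM in IDH1R132H and 2.03 ± 0.849 TPM in IDH2R172K (log2 difference 2.3, adjusted p = 1.45e-05), and SESN2, an amino acid sensor, 21.6 ± 1.03 TPM in IDH1R132H and 8.22 ± 0.321 TPM in IDH2R172K (log2 difference 1.29, adjusted p = 3.61e-06). ATF4 itself had 455, 461 and 463 TPM in IDH1R132H and 227, 247 and 243 TPM in IDH2R172K, above in every library but short of 2-fold (log2 difference 0.94, SE 0.05, adjusted p = 5.69e-09). DDIT3, the pro-apoptotic factor CHOP, had 23.9, 23.5 and 23.1 TPM in IDH1R132H and 16.4, 13.3 and 15.2 TPM in IDH2R172K (log2 difference 0.62, adjusted p = 0.000716).

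Several synthetic enzymes and transporters were also higher. In the serine pathway, PHGDH, its first enzyme, had 131, 128 and 133 TPM in IDH1R132H and 42.9, 48 and 47.2 TPM in IDH2R172K (log2 difference 1.49, SE 0.06, adjusted p = 8.24e-10). PSAT1, the next enzyme, averaged 76.2 ± 2.9 TPM in IDH1R132H and 25.8 ± 3.72 TPM in IDH2R172K (log2 difference 1.53, adjusted p = 6.61e-08), and SHMT2, which passes serine carbon to mitochondrial folate, 211 ± 2.62 TPM in IDH1R132H and 59.7 ± 9.3 TPM in IDH2R172K (log2 difference 1.82, adjusted p = 6.04e-08). ASNS, asparagine synthetase, had 30.7, 36 and 30.5 TPM in IDH1R132H and 9.63, 9.65 and 8.84 TPM in IDH2R172K (log2 difference 1.68, SE 0.09, adjusted p = 5.57e-09). The cysteine-forming enzymes CBS and CTH averaged 54.2 ± 4.62 TPM in IDH1R132H and 17.4 ± 1.42 TPM in IDH2R172K and 24.1 ± 0.717 TPM in IDH1R132H and 3.63 ± 0.375 TPM in IDH2R172K, with log2 differences of 1.59 and 2.44. SLC7A11, the cystine importer, averaged 6.89 ± 0.474 TPM in IDH1R132H and 0.997 ± 0.525 TPM in IDH2R172K (log2 difference 2.02, adjusted p = 2.56e-06), and its partner chain SLC3A2 236 ± 4.87 TPM in IDH1R132H and 108 ± 5.9 TPM in IDH2R172K (log2 difference 1.13, adjusted p = 4.39e-09). SLC7A5, the large neutral amino acid carrier that also pairs with SLC3A2, fell just short, at 159 ± 2.82 TPM in IDH1R132H and 82.4 ± 2.11 TPM in IDH2R172K (log2 difference 0.94, adjusted p = 4.75e-05). The exception was SLC6A9, a glycine transporter, with 0.15, 0.21 and 0.20 TPM in IDH1R132H and 6.86, 7.79 and 6.39 TPM in IDH2R172K (log2 difference −2.75, SE 0.20, adjusted p = 2.01e-07). MTHFD2, the mitochondrial folate enzyme, had 226, 232 and 228 TPM in IDH1R132H and 243, 253 and 246 TPM in IDH2R172K and did not pass the adjusted p (log2 difference −0.11, adjusted p = 0.337). Against the other groups IDH2R172K was the low line for several of these. ASNS averaged 30.8 TPM in IDH2R140Q, 31 TPM in IDH2R140W and 39.3 TPM in Parental, and PHGDH 82.2 TPM in IDH2R140Q, 117 TPM in IDH2R140W and 101 TPM in Parental. DDIT4 averaged 37.2 TPM in IDH2R140Q, 54.3 TPM in IDH2R140W and 102 TPM in Parental, so that IDH1R132H was above and IDH2R172K below all others.

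ATF4 with a C/EBP partner is known to bind the amino acid response element, whose core is TGATGNAA or, on the other strand, TTNCATCA. The promoters of CHAC1 and ASNS are shown because both genes changed and both hold that core, in capitals, within the 250 bases before and 50 after the gene start given by RefSeq (GRCh38.p14). The CHAC1 promoter is chr15:40953221-40953520 on the plus strand, and the ASNS promoter chr7:97872359-97872658 on the minus strand.
CHAC1 promoter: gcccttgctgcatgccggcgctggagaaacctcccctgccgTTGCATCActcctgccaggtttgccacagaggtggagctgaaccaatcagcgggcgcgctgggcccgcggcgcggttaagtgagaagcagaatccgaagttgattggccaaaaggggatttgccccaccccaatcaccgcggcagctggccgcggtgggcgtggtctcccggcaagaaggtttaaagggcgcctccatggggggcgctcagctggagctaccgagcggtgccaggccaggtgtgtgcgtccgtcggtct
ASNS promoter: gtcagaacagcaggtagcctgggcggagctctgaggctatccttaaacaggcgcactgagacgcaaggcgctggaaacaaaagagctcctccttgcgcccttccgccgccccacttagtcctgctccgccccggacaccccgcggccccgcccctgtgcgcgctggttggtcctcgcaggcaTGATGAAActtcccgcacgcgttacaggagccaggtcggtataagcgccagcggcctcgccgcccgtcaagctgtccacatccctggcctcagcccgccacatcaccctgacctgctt
Promoter sequences were found for 22 of the 30 genes of the group, and 5 of these held the core on either strand, in ASNS, ATF3, CHAC1, SLC3A2 and SLC7A1. Among the 12 changed genes with a promoter sequence 4 held it. Over the promoters of 9281 tested genes the share was 1.6%. A match is a description of the letters and was not tied to binding.

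NRF2 controls defence against oxidants, and this list also holds the enzymes that supply NADPH. Of its 22 genes 4 were higher, none was lower and 18 did not change (median 0.27). Over all genes 4.17% were higher and 3.32% lower. SRXN1, sulfiredoxin, had 139, 149.9 and 141 TPM in IDH1R132H and 48.3, 51.1 and 51.3 TPM in IDH2R172K (log2 difference 1.5, SE 0.06, adjusted p = 6.12e-10). ME1, cytosolic malic enzyme and a source of NADPH, had 80.9, 83.6 and 82.3 TPM in IDH1R132H and 28.9, 31.1 and 32.4 TPM in IDH2R172K (log2 difference 1.39, SE 0.06, adjusted p = 1.96e-09). OSGIN1 averaged 6.13 ± 0.587 TPM in IDH1R132H and 0.797 ± 0.153 TPM in IDH2R172K (log2 difference 1.99, adjusted p = 5.05e-07), and SLC7A11 belongs to both lists. HMOX1, GCLM and NQO1, familiar NRF2 targets, had differences of 0.91, 0.71 and 0.50, with groups that did not overlap but under 2-fold. ME1 averaged 94.8 TPM in IDH2R140Q, 49.5 TPM in IDH2R140W and 82.6 TPM in Parental, so IDH2R172K was the line apart there.

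Lineage genes of other blood cells changed in both directions. In the mast cell, basophil and eosinophil list 1 of 18 genes was higher (2 without IDH2R172K replicate 2) and 4 were lower (median −0.22). Over all genes 4.17% were higher and 3.32% lower. MS4A2, the signal-amplifying chain of the IgE receptor of mast cells, had 33, 34.3 and 33.5 TPM in the IDH1R132H libraries, against 1.78, 1.22 and 1.28 TPM in the IDH2R172K libraries (log2 difference 3.84, SE 0.16, adjusted p = 6.12e-10). FCER1A, the IgE-binding chain of that receptor, had 282, 309.5 and 303 TPM in IDH1R132H and 245, 248 and 252 TPM in IDH2R172K, a small difference (log2 difference 0.26, adjusted p = 0.0131). HDC, which makes histamine, went the opposite way to MS4A2, with 0.47, 1.14 and 0.26 TPM in the IDH1R132H libraries, against 109, 107 and 113 TPM in the IDH2R172K libraries (log2 difference −6.13, SE 0.22, adjusted p = 2.36e-10). CLC, the Charcot-Leyden crystal protein, had 0.57, 0.32 and 0 TPM in IDH1R132H and 6.49, 10.6 and 5.2 TPM in IDH2R172K (log2 difference −2.67, adjusted p = 1.31e-06). HPGDS, a prostaglandin D synthase, averaged 7.49 ± 1.12 TPM in IDH1R132H and 19.1 ± 2.62 TPM in IDH2R172K (log2 difference −1.24, adjusted p = 6.42e-05), and SIGLEC6 4.95 ± 0.761 TPM in IDH1R132H and 11.1 ± 1.36 TPM in IDH2R172K (log2 difference −1.02, adjusted p = 0.0066). HDC averaged 2.63 TPM in IDH2R140Q, 5.7 TPM in IDH2R140W and 1.29 TPM in Parental, and MS4A2 2.22 TPM in IDH2R140Q, 0.477 TPM in IDH2R140W and 0.413 TPM in Parental, so each was high in 1 edited line.

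Platelet genes had no common direction as a list. Of 18, 4 were higher by the rule, 1 was lower and 13 did not change (median 0.09). Over all genes 4.17% were higher and 3.32% lower. Without IDH1R132H replicate 1 or without IDH2R172K replicate 3, 2 were lower by the rule. By limma 6 were higher and 5 lower at an unadjusted p under 0.05. The IDH1R132H libraries lay wholly above those of IDH2R172K in 8 genes and wholly below in 8, beside 28.7% and 23.1% of all genes. GP1BB, a chain of the von Willebrand factor receptor, had 27, 28.4 and 30 TPM in IDH1R132H and 8.55, 11.2 and 9.47 TPM in IDH2R172K (log2 difference 1.46, adjusted p = 2.67e-06). PPBP, platelet basic protein, averaged 10.8 ± 1.89 TPM in IDH1R132H and 3.11 ± 1.18 TPM in IDH2R172K (log2 difference 1.55, adjusted p = 0.000106), RAB27B, a granule GTPase, 30.4 ± 1.02 TPM in IDH1R132H and 11.4 ± 1.27 TPM in IDH2R172K (log2 difference 1.35, adjusted p = 0.000175), and THBS1, thrombospondin 1, 16.4 ± 3.46 TPM in IDH1R132H and 5.67 ± 1.94 TPM in IDH2R172K (log2 difference 1.41, adjusted p = 0.000526). F13A1, the coagulation factor XIII A chain, had 14.6, 13 and 12.8 TPM in IDH1R132H and 47, 45.9 and 41.9 TPM in IDH2R172K (log2 difference −1.67, SE 0.16, adjusted p = 2.09e-06). ITGA2B, the platelet integrin alpha IIb, averaged 323 ± 11.6 TPM in IDH1R132H and 449 ± 7.78 TPM in IDH2R172K, with groups apart and under 2-fold (log2 difference −0.47, adjusted p = 2.37e-06).

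Monocyte genes were mostly lower where they changed, 4 of 12 against 1 that was higher (median −0.17), beside 3.32% and 4.17% of all genes. ITGAM, the CD11b integrin, had 12.1, 11.3 and 11.2 TPM in IDH1R132H and 33.5, 44.3 and 38.7 TPM in IDH2R172K (log2 difference −1.66, adjusted p = 2.3e-05). CSF1R, the M-CSF receptor, averaged 7.46 ± 1.51 TPM in IDH1R132H and 19.6 ± 1.21 TPM in IDH2R172K (log2 difference −1.3, adjusted p = 0.000945), and CD4 6.03 ± 1.58 TPM in IDH1R132H and 15.6 ± 3.97 TPM in IDH2R172K (log2 difference −1.23, adjusted p = 0.0129). FCGR2A, an IgG receptor, was higher, at 90, 86.1 and 90.3 TPM in IDH1R132H and 39.4, 36.6 and 38.7 TPM in IDH2R172K (log2 difference 1.19, adjusted p = 1.07e-06). Of 10 stem and progenitor genes, MEIS1, a HOX cofactor, and GFI1, a repressor in progenitors, were higher, at 26.6 ± 3.77 TPM in IDH1R132H and 8.55 ± 0.364 TPM in IDH2R172K and 8.63 ± 0.06 TPM in IDH1R132H and 3.38 ± 0.246 TPM in IDH2R172K, and MYCN was lower, at 8.11 ± 0.716 TPM in IDH1R132H and 19.9 ± 1.11 TPM in IDH2R172K (log2 differences 1.53, 1.14 and −1.2). Over all genes 4.17% were higher and 3.32% lower. The list of HOX genes and cofactors does not hold MEIS1. By limma none of its 19 tested genes changed (median 0.09, with 4 higher and 0 lower at an unadjusted p under 0.05). In that list 1 gene was higher without IDH2R172K replicate 1 and with a pseudocount of 0.1. Of 6 neutrophil granule genes none changed either (median −0.51, with 1 higher and 4 lower at that p), with 1 lower at a pseudocount of 0.1.

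The lines also differed in transcripts of cytokines, whose proteins were not measured. CSF2, which encodes GM-CSF, the factor left out of the medium of both lines, had 1.23, 1.26 and 1.56 TPM in the IDH1R132H libraries, against 10.5, 9.17 and 9.2 TPM in the IDH2R172K libraries. All IDH1R132H libraries lay below all IDH2R172K libraries (log2 difference −2.18, SE 0.12, adjusted p = 1.36e-08). CSF2 averaged 1.89 TPM in IDH2R140Q, 10.4 TPM in IDH2R140W and 5.0 TPM in Parental. Of 13 haematopoietic growth factors 4 were lower in IDH1R132H and 2 were higher (median −0.34), beside 3.32% and 4.17% of all genes. OSM, oncostatin M, had 1.83, 2.38 and 1.47 TPM in IDH1R132H and 9.71, 7.4 and 5.7 TPM in IDH2R172K (log2 difference −1.56, adjusted p = 9.1e-06). LIF averaged 1.57 ± 0.249 TPM in IDH1R132H and 4.13 ± 0.254 TPM in IDH2R172K (log2 difference −1.0, adjusted p = 0.000456) and FLT3LG, the FLT3 ligand, 4.42 ± 0.384 TPM in IDH1R132H and 9.89 ± 1.54 TPM in IDH2R172K (log2 difference −1.0, adjusted p = 0.000639), both at the edge of 2-fold. IL11 was higher, at 2.91 ± 0.486 TPM in IDH1R132H and 0.71 ± 0.0624 TPM in IDH2R172K (log2 difference 1.18, adjusted p = 0.000104), and so was ANGPT1, angiopoietin 1, at 20.2 ± 1.48 TPM in IDH1R132H and 8.58 ± 1.63 TPM in IDH2R172K (log2 difference 1.16, adjusted p = 0.00083). Without IDH2R172K replicate 3 the count of lower growth factors was 2.

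Among 17 cytokine receptors 2 were lower and 1 was higher (median −0.09), beside 3.32% and 4.17% of all genes. CSF2RB, the beta chain shared by the GM-CSF, IL-3 and IL-5 receptors, had 54.9, 55.8 and 52.2 TPM in IDH1R132H and 119, 118 and 123 TPM in IDH2R172K (log2 difference −1.13, SE 0.15, adjusted p = 4.55e-05). CSF1R was the other, and IL1RAP, the accessory chain of the IL-1 receptor, was higher, at 61.9, 63.8 and 54.9 TPM in IDH1R132H and 24.4, 29.4 and 24.7 TPM in IDH2R172K (log2 difference 1.17, adjusted p = 0.000256). EPOR, the erythropoietin receptor, did not differ beyond the spread, at 45.1 ± 2.1 TPM in IDH1R132H and 42.9 ± 3.08 TPM in IDH2R172K (log2 difference 0.07, adjusted p = 0.612), nor did KIT reach 2-fold, at 5.74 ± 0.619 TPM in IDH1R132H and 3.12 ± 0.344 TPM in IDH2R172K (log2 difference 0.71, adjusted p = 0.00753). CSF2RB averaged 118 TPM in IDH2R140Q, 167 TPM in IDH2R140W and 66.6 TPM in Parental, so IDH1R132H was nearest Parental.

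Of 16 STAT5 targets, genes induced downstream of GM-CSF, 3 were lower, none was higher and 13 did not change (median −0.33). ID1, an inhibitor of differentiation, had 109, 116 and 110.2 TPM in IDH1R132H and 251, 254 and 257 TPM in IDH2R172K (log2 difference −1.18, SE 0.09, adjusted p = 1.98e-07), and OSM and LIF were the other 2. By limma 2 of the 16 were higher and 11 lower at an unadjusted p under 0.05. In 11 every IDH1R132H library lay below every IDH2R172K library, beside 23.1% of all genes, and in 2 above, beside 28.7%. The feedback genes CISH and SOCS2 and the kinase PIM1 averaged 44 ± 1.19 TPM in IDH1R132H and 49.2 ± 0.537 TPM in IDH2R172K, 24.2 ± 3.19 TPM in IDH1R132H and 29.1 ± 4.18 TPM in IDH2R172K and 148 ± 1.17 TPM in IDH1R132H and 185 ± 5.89 TPM in IDH2R172K, none by 2-fold. Of 18 genes that report ERK signalling 3 were higher and none was lower (median 0.56; with 11 higher and 2 lower at an unadjusted p under 0.05 by limma). In 11 every IDH1R132H library lay above every IDH2R172K library, and in 2 below. Over all genes these shares were 28.7% and 23.1%. PHLDA1 had 4.41, 4.56 and 4.62 TPM in IDH1R132H and 1.05, 0.84 and 1.09 TPM in IDH2R172K (log2 difference 1.47, adjusted p = 4.52e-06). DUSP6, a phosphatase of ERK, had 42.9, 39.6 and 40.1 TPM in IDH1R132H and 15.6, 20.7 and 22 TPM in IDH2R172K (log2 difference 1.05, adjusted p = 3.63e-05), and its difference was 0.91 without IDH2R172K replicate 1. FOS, an immediate early transcription factor, had 12.6, 13.1 and 9.7 TPM in IDH1R132H and 7.97, 4.65 and 4.0 TPM in IDH2R172K (log2 difference 1.01, adjusted p = 0.0017), and it fell under 2-fold in 6 of the alternative fits.

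NF-kB genes split. Of 24, 5 were higher, 2 were lower and 17 did not change (median 0.09). Over all genes 4.17% were higher and 3.32% lower. CCL7, a chemokine for monocytes, had 21.7, 24.6 and 22.6 TPM in the IDH1R132H libraries, against 0.31, 0.23 and 0.55 TPM in the IDH2R172K libraries, far above in every library (log2 difference 4.14, SE 0.27, adjusted p = 5.03e-08). RELB and NFKB2, the subunits of the noncanonical pathway, averaged 46.3 ± 2.69 TPM in IDH1R132H and 17.3 ± 1.38 TPM in IDH2R172K for RELB (log2 difference 1.37, adjusted p = 4.91e-07) and 44.6 ± 4.43 TPM in IDH1R132H and 19.4 ± 2.15 TPM in IDH2R172K for NFKB2 (log2 difference 1.16, adjusted p = 4.3e-06). TNFAIP3, the A20 inhibitor of the pathway, averaged 12.9 ± 1.33 TPM in IDH1R132H and 2.77 ± 0.391 TPM in IDH2R172K (log2 difference 1.88, adjusted p = 1.35e-05), and BIRC3, an inhibitor of apoptosis, 5.26 ± 1.2 TPM in IDH1R132H and 1.12 ± 0.593 TPM in IDH2R172K (log2 difference 1.58, adjusted p = 6.19e-05). The interleukins went the other way. IL1B had 78.3, 81.8 and 92.6 TPM in IDH1R132H and 208, 205 and 210.4 TPM in IDH2R172K (log2 difference −1.3, SE 0.06, adjusted p = 3.84e-09), and IL1A averaged 1.79 ± 0.43 TPM in IDH1R132H and 6.0 ± 0.91 TPM in IDH2R172K (log2 difference −1.33, adjusted p = 1.95e-05). CCL7 is listed at 0 in all Parental libraries and averaged 1.16 TPM in IDH2R140Q and 4.13 TPM in IDH2R140W.

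Interferon-induced genes changed in both directions. Of 45, 3 were higher (4.17% of all genes were), 6 were lower (3.32% of all genes were) and 36 did not change (median −0.19). LY6E lies in a stretch of chromosome 8, and SAMD9 and SAMD9L in one of chromosome 7, whose genes differed together, described further on. LY6E, a surface protein, had 932, 926 and 931 TPM in IDH1R132H and 443, 434 and 463 TPM in IDH2R172K (log2 difference 1.06, SE 0.04, adjusted p = 6.83e-10), and IFIT5 and GBP2 were also higher, with log2 differences of 1.26 and 1.03. OAS1, an RNA sensor, had 1.7, 1.45 and 1.07 TPM in IDH1R132H and 6.44, 5.51 and 3.8 TPM in IDH2R172K (log2 difference −1.36, adjusted p = 5.01e-05), SP110 averaged 6.73 ± 1.06 TPM in IDH1R132H and 15.3 ± 1.64 TPM in IDH2R172K (log2 difference −1.08, adjusted p = 3.03e-05), and HERC6, GBP1, SAMD9 and SAMD9L were lower, with log2 differences of −1.07, −1.06, −1.17 and −1.01. ISG15 averaged 50.2 ± 2.82 TPM in IDH1R132H and 37.5 ± 0.674 TPM in IDH2R172K, under 2-fold. Without IDH1R132H replicate 3 the count of lower genes was 3, and with a pseudocount of 0.1 the count of higher genes was 5.

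The BMP list held changes in both directions, 3 higher and 3 lower of 14 (median 0.11), beside 4.17% and 3.32% of all genes. BAMBI, a decoy receptor, had 17.3, 18.3 and 17.9 TPM in IDH1R132H and 1.6, 1.12 and 1.72 TPM in IDH2R172K (log2 difference 2.93, SE 0.15, adjusted p = 4.39e-09). BMP6, a ligand, averaged 42 ± 2.27 TPM in IDH1R132H and 16.1 ± 1.12 TPM in IDH2R172K (log2 difference 1.33, adjusted p = 3.71e-06), and SMAD7, an inhibitor of the pathway, 9.11 ± 1.28 TPM in IDH1R132H and 2.93 ± 0.442 TPM in IDH2R172K (log2 difference 1.36, adjusted p = 8.84e-06). ID2, a target and inhibitor of differentiation, had 27.9, 28.8 and 23.4 TPM in IDH1R132H and 124, 105 and 119.7 TPM in IDH2R172K (log2 difference −2.09, SE 0.09, adjusted p = 1.08e-09), ID1 was given above, and the receptor ACVRL1 averaged 1.68 ± 0.491 TPM in IDH1R132H and 4.52 ± 1.03 TPM in IDH2R172K (log2 difference −1.04, adjusted p = 0.0012). In adhesion and matrix genes 3 of 24 were higher and 3 lower (median 0.08), beside 4.17% and 3.32% of all genes. ITGB5, an integrin beta chain, had 43.9, 38.7 and 39.4 TPM in IDH1R132H and 7.29, 5.91 and 4.92 TPM in IDH2R172K (log2 difference 2.58, adjusted p = 8.17e-08). MMP9, a gelatinase, averaged 25.6 ± 1.61 TPM in IDH1R132H and 6.41 ± 0.13 TPM in IDH2R172K (log2 difference 1.84, adjusted p = 1.96e-08) and SELPLG, the P-selectin ligand, 16.8 ± 2.3 TPM in IDH1R132H and 65.8 ± 0.503 TPM in IDH2R172K (log2 difference −1.92, adjusted p = 7.75e-08). The tetraspanin CD9 was higher (log2 difference 1.01), and the homing receptor ITGB7 was lower (log2 difference −1.03).

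**Figure D3:**
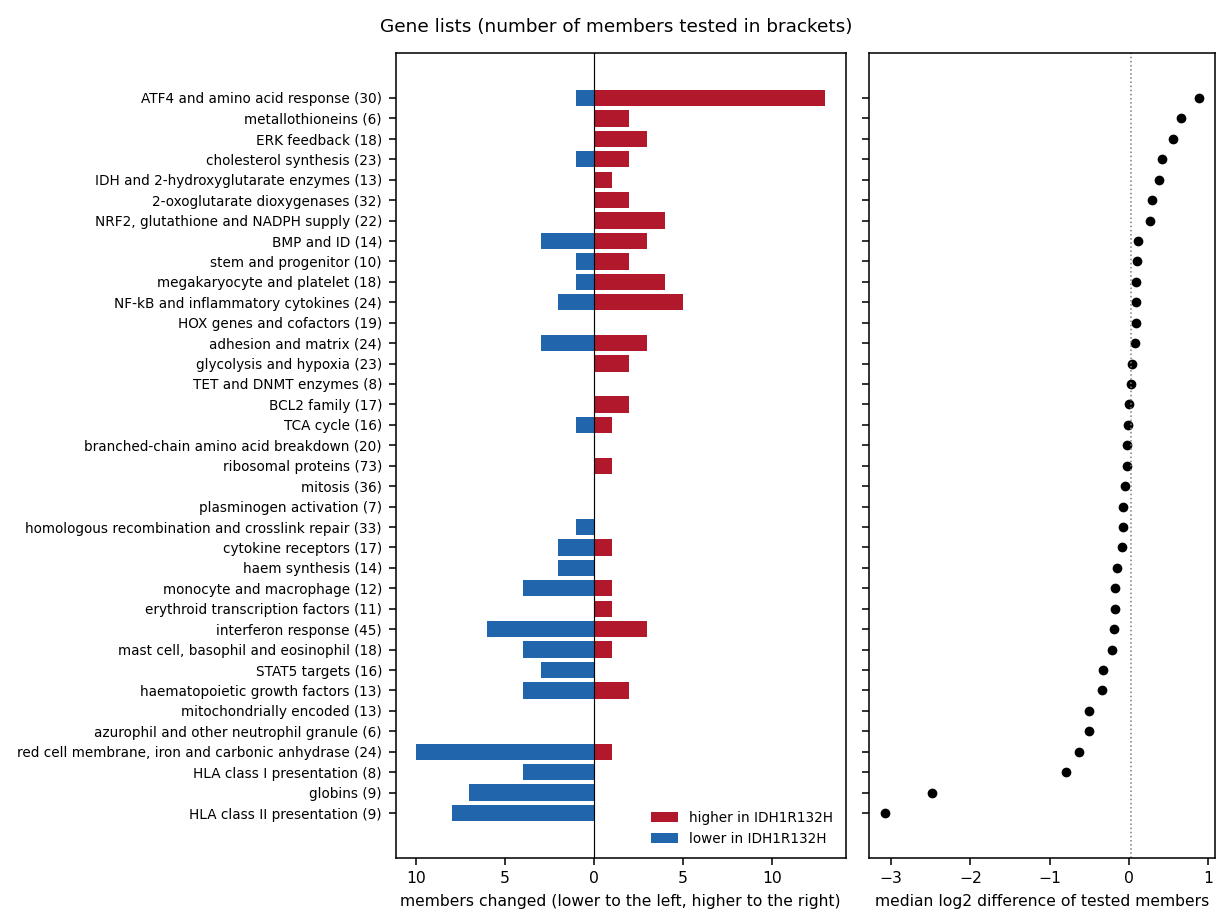
For each list with at least 5 members tested (number in brackets), the number of members lower (blue, left) and higher (red, right) in IDH1R132H, and the median log2 difference of all its tested members, with the median of all genes dotted. HLA class II genes and globins have the lowest medians and the ATF4 and amino acid list the highest.

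Genes close to the IDH reaction differed mostly by less than 2-fold. Of 13 IDH and 2-hydroxyglutarate enzymes 1 was higher by the rule and none was lower, near the share of all genes, but the median was 0.38, with 7 higher and 0 lower at an unadjusted p under 0.05. In 9 of the 13 every IDH1R132H library lay above every IDH2R172K library, beside 28.7% of all genes. Without IDH1R132H replicate 2 or without IDH2R172K replicate 3, 2 genes of the list were higher. The gene that passed was GPT2, a mitochondrial alanine aminotransferase that makes 2-oxoglutarate, at 19.9, 19.7 and 20.4 TPM in IDH1R132H and 7.32, 8.88 and 8.23 TPM in IDH2R172K (log2 difference 1.2, SE 0.18, adjusted p = 0.000171). D2HGDH, which oxidises the D form of 2-hydroxyglutarate that mutant IDH enzymes make, had 7.64, 8.51 and 5.71 TPM in IDH1R132H and 5.85, 7.28 and 5.87 TPM in IDH2R172K and overlapped (log2 difference 0.17, adjusted p = 0.615). By limma none of 8 TET and DNMT enzymes changed (median 0.03; with 2 higher and 1 lower at an unadjusted p under 0.05), and TET2 averaged 4.54 ± 0.124 TPM in IDH1R132H and 4.42 ± 0.138 TPM in IDH2R172K (log2 difference 0.03, adjusted p = 0.938). Of 32 other 2-oxoglutarate dioxygenases 2 were higher and none was lower (median 0.29), beside 4.17% and 3.32% of all genes. In 19 every IDH1R132H library lay above every IDH2R172K library, and in 3 below, beside 28.7% and 23.1% of all genes. EGLN3, a HIF prolyl hydroxylase, had 7.89, 5.9 and 9.66 TPM in IDH1R132H and 1.08, 2.15 and 2.3 TPM in IDH2R172K (log2 difference 1.64, adjusted p = 6.18e-05), and the histone demethylase gene JHDM1D, now named KDM7A, had 13.9, 16.1 and 19.3 TPM in IDH1R132H and 5.89, 7.95 and 7.33 TPM in IDH2R172K (log2 difference 1.11, adjusted p = 0.0153). JHDM1D did not pass without IDH1R132H replicate 3 or without IDH2R172K replicate 1 (adjusted p = 0.0609 and 0.0581, within a range over the alternatives of 0.00031 to 0.0609).

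In the TCA cycle 1 of 16 genes was higher and 1 lower (median −0.01), beside 4.17% and 3.32% of all genes. Both lie in stretches of neighbouring genes that differed together. SUCLA2, a succinyl-CoA ligase subunit on chromosome 13, had 42.5, 43 and 43.8 TPM in IDH1R132H and 15.4, 18.2 and 17.2 TPM in IDH2R172K (log2 difference 1.3, SE 0.11, adjusted p = 6.24e-07). DLD, the E3 subunit of the 2-oxo acid dehydrogenases on chromosome 7, had 59.9, 64.8 and 66.5 TPM in IDH1R132H and 150.0, 151 and 144 TPM in IDH2R172K (log2 difference −1.21, SE 0.07, adjusted p = 1.98e-08). SUCLA2 averaged 43.2 TPM in IDH2R140Q, 33.8 TPM in IDH2R140W and 42.8 TPM in Parental, and DLD 152 TPM in IDH2R140Q, 131 TPM in IDH2R140W and 131.9 TPM in Parental, so the low line was IDH2R172K for SUCLA2 and IDH1R132H for DLD. Mitochondrially encoded genes showed no change by the rule in any of 13, but their median was −0.51. By limma 0 were higher and 9 lower at an unadjusted p under 0.05. In 10 of the 13 every IDH1R132H library lay below every IDH2R172K library, beside 23.1% of all genes. Without IDH1R132H replicate 3, 1 of the 13 was lower by the rule. MT-CO1, a subunit of cytochrome c oxidase, had 2905, 2915 and 3153 TPM in IDH1R132H and 4300.5, 4257 and 4204 TPM in IDH2R172K (log2 difference −0.51, adjusted p = 0.000194). Transcripts of the mitochondrial genome enter poly(A) libraries unevenly, so their levels compare libraries rather than mitochondrial content.

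Cholesterol synthesis genes had a median of 0.42, with 2 of 23 higher and 1 lower, beside 4.17% and 3.32% of all genes. SQLE, squalene epoxidase, had 166, 173 and 171 TPM in IDH1R132H and 81, 81.3 and 80.2 TPM in IDH2R172K (log2 difference 1.06, SE 0.06, adjusted p = 1.3e-08), and SC5D, a late enzyme of the pathway, averaged 52.4 ± 1.45 TPM in IDH1R132H and 23.3 ± 3.94 TPM in IDH2R172K (log2 difference 1.15, adjusted p = 0.000261). In 15 of the 23 genes the IDH1R132H libraries lay wholly above those of IDH2R172K, and in 4 wholly below. Over all genes these shares were 28.7% and 23.1%. In glycolysis and hypoxia 2 of 23 genes were higher, EGLN3 and NDRG1, beside 4.17% of all genes, and none was lower (median 0.04). By limma 8 were higher and 7 lower at an unadjusted p under 0.05. The IDH1R132H libraries lay wholly above those of IDH2R172K in 10 genes and wholly below in 9, beside 28.7% and 23.1% of all genes. NDRG1, a stress-induced protein, averaged 15.4 ± 1.76 TPM in IDH1R132H and 4.69 ± 0.753 TPM in IDH2R172K (log2 difference 1.53, adjusted p = 1.86e-05). MT1F and MT1G, metal-binding metallothioneins with close paralogs, were higher among 6 of their list, at 6.22, 8.96 and 3.3 TPM in IDH1R132H and 1.12, 0.78 and 0.93 TPM in IDH2R172K for MT1F and 5.01 ± 0.715 TPM in IDH1R132H and 0.683 ± 0.308 TPM in IDH2R172K for MT1G (log2 difference 1.8, adjusted p = 9.95e-05 and log2 difference 1.85, adjusted p = 4.85e-06). Of 17 BCL2 family genes the pro-apoptotic PMAIP1 and BBC3 were higher, at 34.5 ± 1.63 TPM in IDH1R132H and 15.3 ± 0.319 TPM in IDH2R172K (log2 difference 1.12, adjusted p = 3.06e-07) and 26.2 ± 2.36 TPM in IDH1R132H and 11.9 ± 2.46 TPM in IDH2R172K (log2 difference 1.09, adjusted p = 3.01e-05), and BBC3 differed by 0.94 without IDH2R172K replicate 1. Over all genes 4.17% were higher, beside 2 of 17 in this list and 2 of 6 metallothioneins.

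Few growth and repair genes changed. By limma none of 36 mitosis genes changed (median −0.05; with 8 higher and 10 lower at an unadjusted p under 0.05). None of 20 genes of branched-chain amino acid breakdown (median −0.02; 4 higher and 7 lower at that p) or of 7 of plasminogen activation (median −0.08; 1 higher and 2 lower at that p) changed either. Without IDH1R132H replicate 1, and after median-ratio scaling or quantile normalisation, 1 mitosis gene was lower. Of 33 genes of homologous recombination and crosslink repair 1 changed, FANCF, at 2.77 ± 0.192 TPM in IDH1R132H and 7.27 ± 0.566 TPM in IDH2R172K (log2 difference −1.13, adjusted p = 3.9e-05), with a list median of −0.08 and 1 higher and 8 lower at that p. That count was 2 without IDH1R132H replicate 2, without IDH2R172K replicate 1, after either scaling and with library weights. Of 73 ribosomal protein genes RPS6 alone changed, at 3151, 3162 and 3130.2 TPM in IDH1R132H and 1532, 1560.2 and 1529 TPM in IDH2R172K (log2 difference 1.03, SE 0.11, adjusted p = 4.85e-06). RPS6 averaged 2908 TPM in IDH2R140Q, 4478 TPM in IDH2R140W and 4396 TPM in Parental, so IDH2R172K was the low line, and after median-ratio scaling its difference was 0.99. PAX5, a B cell transcription factor, was the changed gene of the lists for other cell types, at 1.03, 1.37 and 1.77 TPM in IDH1R132H and 0.05, 0.05 and 0.04 TPM in IDH2R172K (log2 difference 1.18, adjusted p = 0.000135).

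The largest single differences lay mostly outside these groups. Taking protein-coding genes whose higher line averaged 10 TPM or more, the 12 largest rises included, beside CCL7, MS4A2 and DDIT4, the 9 genes that follow. CYTL1, a secreted protein of CD34-positive cells, had 24.7, 22.8 and 29.4 TPM in IDH1R132H and 0.41, 0.68 and 0.74 TPM in IDH2R172K (log2 difference 4.05, SE 0.16, adjusted p = 5.49e-10). ITGB4, an integrin chain that binds laminin, had 51, 47.8 and 52.3 TPM in IDH1R132H and 1.88, 1.39 and 5.17 TPM in IDH2R172K (log2 difference 3.88, SE 0.29, adjusted p = 2.14e-07), and LAMC1, a laminin chain, 18.2, 14.8 and 25.2 TPM in IDH1R132H and 0.84, 0.74 and 0.45 TPM in IDH2R172K (log2 difference 3.58, SE 0.26, adjusted p = 1.95e-07). COL2A1, a collagen chain known from cartilage, had 121, 120.4 and 118 TPM in IDH1R132H and 8.71, 8.74 and 10.9 TPM in IDH2R172K (log2 difference 3.54, SE 0.13, adjusted p = 3.55e-10). SEPP1, a plasma selenium carrier, averaged 29.2 ± 3.06 TPM in IDH1R132H and 1.26 ± 0.881 TPM in IDH2R172K, NCK2, an adaptor protein, 29.1 ± 0.932 TPM in IDH1R132H and 1.27 ± 0.404 TPM in IDH2R172K, and PALM3 13.7 ± 0.777 TPM in IDH1R132H and 0.90 ± 0.567 TPM in IDH2R172K. LARP6, an RNA-binding protein of collagen transcripts, had 12.5, 13 and 14.4 TPM in IDH1R132H and 0.42, 1.27 and 0 TPM in IDH2R172K, with 1 library listed at 0. ZMYM2, a zinc finger protein, had 30.8, 42.5 and 30.5 TPM in IDH1R132H and 1.55, 2.77 and 2.22 TPM in IDH2R172K, whereas it averaged 37.6 TPM in IDH2R140Q, 32.6 TPM in IDH2R140W and 31.3 TPM in Parental, so IDH2R172K was low and the other groups were alike. ITGB4, LAMC1 and LARP6 also stood high in IDH2R140Q, at means of 47.1, 15.2 and 17.2 TPM.

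The 12 largest falls included, beside 3 globins, HDC and CD74, the 7 genes that follow. HSH2D, a haematopoietic adaptor protein, had 0.18, 0 and 0 TPM in the IDH1R132H libraries, against 92.8, 93.4 and 90.6 TPM in the IDH2R172K libraries, with 2 libraries listed at 0 (log2 difference −6.46, SE 0.19, adjusted p = 2.31e-11). PTPRCAP, a partner of CD45, had 2.42, 1.47 and 1.82 TPM in IDH1R132H and 64.7, 61.5 and 65.5 TPM in IDH2R172K (log2 difference −4.49, SE 0.14, adjusted p = 6.19e-11). PRF1, perforin of cytotoxic cells, had 0.66, 0.67 and 0.83 TPM in IDH1R132H and 27.5, 27.6 and 31.6 TPM in IDH2R172K (log2 difference −4.12, SE 0.18, adjusted p = 8.24e-10). LSP1, an actin-binding leukocyte protein, averaged 0.263 ± 0.134 TPM in IDH1R132H and 17.9 ± 2.1 TPM in IDH2R172K, CLCA1, a secreted chloride channel regulator, 0.92 ± 0.236 TPM in IDH1R132H and 22.3 ± 1.42 TPM in IDH2R172K, and KRT72, a keratin of the hair root sheath, 0.38 ± 0.32 TPM in IDH1R132H and 13.5 ± 1.56 TPM in IDH2R172K. RHOB, a small GTPase, had 0, 0.08 and 0.05 TPM in IDH1R132H and 10.6, 11.7 and 10.7 TPM in IDH2R172K. HSH2D averaged 0.263 TPM in IDH2R140Q, 0.48 TPM in IDH2R140W and 1.89 TPM in Parental, and PRF1 3.45 TPM in IDH2R140Q, 2.92 TPM in IDH2R140W and 1.62 TPM in Parental, so both were high in IDH2R172K alone among the 5 group means.

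Among changed genes listed at 0 in all IDH1R132H libraries the highest in IDH2R172K were TMPRSS15 and LINC00922, with RNU5B-1. TMPRSS15, the gut protease enteropeptidase, had 48.6, 50.7 and 50.4 TPM in IDH2R172K, and averaged 0.00667 TPM in IDH2R140Q, 0.30 TPM in IDH2R140W and 0.803 TPM in Parental. LINC00922, a long noncoding RNA, had 24.3, 21.8 and 22.5 TPM in IDH2R172K. No fold is given against a listing of 0. Of noncoding genes, ZFAS1 and SNHG6, which host small nucleolar RNAs, were higher, at 685, 646 and 679.9 TPM in IDH1R132H and 271, 279 and 315 TPM in IDH2R172K for ZFAS1 (log2 difference 1.22, SE 0.09, adjusted p = 1.78e-07) and 483, 578 and 503 TPM in IDH1R132H and 225, 222 and 224 TPM in IDH2R172K for SNHG6 (log2 difference 1.21, SE 0.18, adjusted p = 0.000113). CCDC26, a long noncoding RNA near MYC, was lower, at 0.70, 1.38 and 0.53 TPM in IDH1R132H and 26.7, 21.2 and 25 TPM in IDH2R172K (log2 difference −3.78, SE 0.28, adjusted p = 1.67e-07). The small RNAs RNU4-2, RNY1 and RNU5B-1 were called lower, but 1 library held most of the signal. RNY1 had 0, 0 and 2.75 TPM in IDH1R132H and 300.0, 7.16 and 12.8 TPM in IDH2R172K, and RNU4-2 had 1.16, 0 and 0 TPM in IDH1R132H and 273, 4.23 and 10.1 TPM in IDH2R172K. RNU5B-1 had 208, 3.33 and 7.94 TPM in IDH2R172K, and its adjusted p was 0.0566 without replicate 1, within a range over the alternatives of 0.00299 to 0.0566. Poly(A) selection captures such RNAs poorly.

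Part of the difference followed position in the genome. Protein-coding genes tested were put in order along each chromosome, and the median difference of every 25 neighbours was taken. Of 11193 such windows 4.1% had a median beyond 0.5 in either direction, and these merged into 17 runs with 967 genes, 12 of them above and 5 below. The runs were chosen by their differences, so their values are a description with no test. In the runs 20% of genes changed, 147 higher and 46 lower, against 6.71% of the 10778 genes elsewhere.

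**Figure D4:**
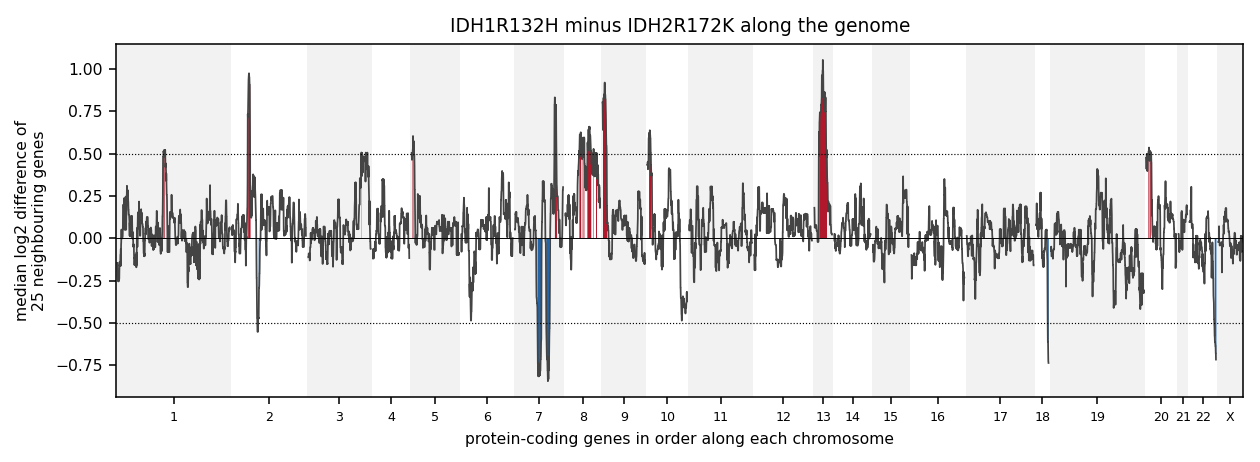
Median log2 difference (IDH1R132H minus IDH2R172K) of 25 neighbouring protein-coding genes, in gene order along chromosomes 1 to 22 and X, with windows beyond 0.5 filled. The tallest stretches above 0 lie on chromosomes 2, 7, 9 and 13, and the deepest below 0 on chromosomes 7, 18 and 22.

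On chromosome 13 a run of 104 genes from RFC3 to DCT (hg38 33818049 to 94479682) had a median of 0.74, with 32 genes higher and none lower. Relative to Parental and to all genes, the IDH1R132H libraries had medians of 0.03, 0.04 and 0.00 over the run and the IDH2R172K libraries −0.73, −0.69 and −0.66, so IDH2R172K was the line apart. The run on chromosome 9 from CBWD1 to ANKRD18B (121038 to 33573009, 68 genes), which holds RPS6, had a median of 0.67, with 20 genes higher. Each IDH1R132H library stood within 0.02 of Parental there, while the values of IDH2R172K were −0.55, −0.52 and −0.68. The 2 runs of chromosome 8, with 79 and 123 genes, had medians of 0.49 and 0.51, and stood at −0.07 and −0.12 in IDH1R132H and at −0.59 and −0.60 in IDH2R172K. These and the following values of a line are medians over genes of its mean over 3 libraries, and can lie outside the medians of the single libraries. The run on chromosome 2 from CAMKMT to B3GNT2 (44361950 to 62224731, 50 genes), which holds BCL11A, had a median of 0.63, with IDH1R132H at −0.10 and IDH2R172K at −0.48.

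IDH1R132H was the line apart on chromosome 7. From KIAA1324L to CNPY4 (86876906 to 100125511, 64 genes) and from TRIM56 to ST7 (101085439 to 117230103, 60 genes) the medians were −0.60 and −0.56. These runs stood at −0.73 and −0.67 in IDH1R132H and at 0.00 and 0.05 in IDH2R172K relative to Parental. ASNS lies in the first of them and was higher in IDH1R132H although most of its neighbours that changed were lower. DLD lies in the second. On chromosome 18 the run from LMAN1 to PARD6G (59327823 to 80247546, 33 genes) stood at −0.60 in IDH1R132H and 0.05 in IDH2R172K. On chromosome 20 the run from EBF4 to SNRPB2 stood at 0.52 in IDH1R132H and −0.02 in IDH2R172K, and on chromosome 22 the run from ARHGAP8 to SHANK3 at −0.17 in IDH1R132H and 0.46 in IDH2R172K. In each run the 3 libraries of IDH1R132H lay apart from the 3 of IDH2R172K, a separation that follows from how the runs were found. Of the 10778 placed protein-coding genes in no run, 387 were higher and 336 lower. Noncoding genes and symbols without a place were not assigned to runs, so some may lie inside one. With these counted too, 922 genes changed that were not assigned to a run, 474 higher and 448 lower. Of the changed globin, HLA class II and HLA class I genes none lay in a run. In a run lay 2 of the 14 changed genes of the ATF4 and amino acid list, 2 of the 11 of the red cell membrane, iron and carbonic anhydrase list (CA1 and CA2, on chromosome 8), 3 of the 9 of the interferon list and 2 of the 3 of the cholesterol list (with SQLE on chromosome 8). ANGPT1 and NDRG1 also lay in runs of chromosome 8, IL1RAP in 1 of chromosome 3, JHDM1D in 1 of chromosome 7 and PMAIP1 in that of chromosome 18. CA1, PMAIP1 and ASNS differed in the direction opposite to their run. DNA was not measured in these samples.

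**Figure D5:**
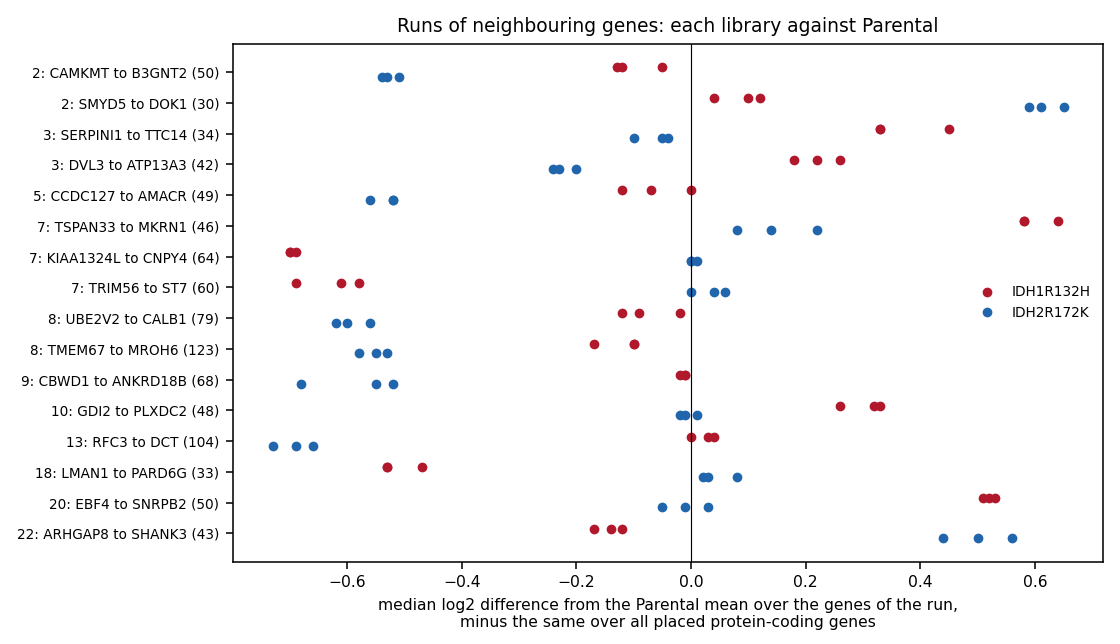
Median log2 difference from the Parental mean over the genes of each of 16 of the 17 runs, minus the same over all placed protein-coding genes, for the 3 IDH1R132H libraries (red) and the 3 IDH2R172K libraries (blue). In most runs 1 line stays near 0 and the other departs, IDH2R172K on chromosome 13 and IDH1R132H on chromosome 7.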

How the data were processed

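RNA of 15 TF-1 libraries, 3 for each of the 5 genotypes that the labels give, was sequenced after poly(A) selection with a directional kit, per the labels' protocols. The authors' deposited values are TPM, in a single table with a column per library and gene symbols as rows. Tools listed in the submitters' processing notes, without a role, are DESeq2, RSEM, HTSeq and STAR 2.7.3, and the build is hg38. The annotation release and strand setting were not given in the sources used. TPM keeps no read number, so depth, and the precision it gives, are unknown, and a change in abundant genes moves all others.

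Of 63568 rows, 6 with symbols that a spreadsheet had turned into ambiguous dates were left out, and rows of 1 symbol were summed, giving 56624 symbols. Tested were the 14881 that reached 1 TPM in 3 libraries or more, 224 of them from more than 1 row. At the edge of this filter, 579 symbols reached 1 TPM in exactly 3 libraries (median level 0.631 TPM) and 651 in exactly 2 (0.468 TPM). Values were taken as log2(TPM + 1), a pseudocount of 1, and limma 3.58.1 (R 4.3.3) fitted 5 group means to the 15 libraries with a variance trend. A gene counted as changed with an adjusted p (Benjamini-Hochberg, over all genes tested) under 0.05 and a log2 difference of 1 or more. GENCODE release 29 gave a place for 13049 (87.7%). The procedure was tested on simulated data.

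Named were IDH1 and IDH2, the 12 largest rises and falls among changed protein-coding genes averaging 10 TPM or more in the higher line, groups apart and not all at 0 in the lower line, the 3 highest genes at 0 in one line, the 3 largest noncoding changes each way (1 rise is not described), and 3 changed members of each of 42 lists with the smallest adjusted p, with other members named beside their count. Some of these genes, 1 run of neighbours and 1 sequence are not reported here. The genes, lists and tests were chosen with earlier results of these data known. Alternatives were other pseudocounts, filters, scalings and fits, leaving out each library, and a block for the replicate number. Leaving out genes in runs of neighbours was added after the data were seen.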

Additional observations from a re-analysis of the deposited data

How the results depend on the processing

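The counts of changed genes stayed within 1.5 times of 1115 under every alternative run. They ranged from 797 with a minimum of 5 TPM (442 higher, 355 lower) to 1585 with a pseudocount of 0.1 (916 higher, 669 lower), and from 1101 to 1154 on leaving out 1 library. The replicate number as a block gave 1114 (619 higher, 495 lower), and same-numbered libraries of the lines did not deviate together (r of 0.00, −0.03 and −0.03), so the numbers give no pairing. Median-ratio scaling gave 1081, of which 1055 were shared with the 1115, and quantile normalisation 1107, of which 1067 were shared. IDH1 differed by −0.03 and changed sign without IDH1R132H replicate 3 (0.02) and without IDH2R172K replicate 3 (0.03), with a range of −0.07 to 0.03 on leaving out 1 library, and its adjusted p was 0.517 or more in every fit. IDH2 kept its direction and its call in every fit. Over 1590 values of named genes under the alternatives, 1573 kept their call and direction and 15, of BBC3, DUSP6, FOS, JHDM1D, LIF, RNU5B-1 and RPS6, fell under the threshold. The cause of these was not tested. With no read counts, what depth limits is unknown, genes near 1 TPM have differences that the pseudocount shrinks, and a 0 can be a failed estimate.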

Other observations

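In other runs of neighbouring genes than those described above, the line that departed from Parental varied. On chromosome 5, from CCDC127 to AMACR (49 genes), the median relative to Parental was −0.05 in IDH1R132H and −0.52 in IDH2R172K. On chromosome 2, from SMYD5 to DOK1 (30 genes), it was 0.07 in IDH1R132H and 0.62 in IDH2R172K. IDH1R132H departed on chromosome 7 from TSPAN33 to MKRN1 (46 genes, with JHDM1D), at 0.58 in IDH1R132H and 0.14 in IDH2R172K. It also departed on chromosome 10 from GDI2 to PLXDC2 (48 genes), at 0.33 in IDH1R132H and −0.03 in IDH2R172K, and on chromosome 3 from SERPINI1 to TTC14 (34 genes), at 0.36 in IDH1R132H and −0.06 in IDH2R172K. On chromosome 3 from DVL3 to ATP13A3 (42 genes, with IL1RAP) the lines lay on both sides of Parental, at 0.22 in IDH1R132H and −0.22 in IDH2R172K. Over whole chromosomes, 20.6% of the 209 placed genes of chromosome 13 changed, and the share on the other chromosomes was 4.69% to 10.9%.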
